A study of Mus musculus with 2 samples.

Results

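The hormone gene *Fgf23* was followed through the femoral cells together with the genes *Phex*, *Fam20c*, *Fam20a*, *Furin* and *Pcsk5*, whose products act on FGF23 or on its expression. These 6 genes were taken by gene symbol, and all 6 were among the 32285 genes measured. The data came from single cells of femurs of C57BL/6J mice aged 7 weeks. The femurs of 6 mice were pooled into 1 untreated library, and those of 6 others into 1 calcitriol library, taken 24 h after the last of 3 daily injections of calcitriol (1,25-dihydroxyvitamin D3) at 2.5 μg/kg. The bone had been digested and CD45+ cells removed, so that most white blood cells were depleted in both groups. The measurement was the number of unique molecular identifiers (UMIs), each of which marks 1 captured mRNA molecule, per gene and cell. Levels are given in CPM (counts-per-million), the share of a gene in all UMIs of the same cells. Each group is 1 library, so there was no replicate and no test, and all intervals are 95% intervals that cover counting error only. Because cells and mice were pooled, fewer cells that express a gene and less RNA per cell cannot be told apart in a summed level.

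FGF23 is a hormone of bone that lowers phosphate reabsorption in the kidney and the level of active vitamin D. Intact FGF23 is inactivated by cleavage at a furin-type site, which proprotein convertases such as furin (*Furin*) and PC5 (*Pcsk5*) can cut. The secretory kinase FAM20C (*Fam20c*) phosphorylates FGF23 next to this site and favors cleavage, whereas O-glycosylation by GALNT3 (*Galnt3*) protects the site. FAM20A (*Fam20a*) is a pseudokinase that binds FAM20C and raises its activity, and it is known for its part in enamel formation. PHEX (*Phex*) is a membrane endopeptidase of osteoblasts and osteocytes, and its loss causes X-linked hypophosphatemia with high FGF23.

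In the GENCODE annotation of GRCm38, all 6 are protein-coding genes. *Fgf23* lies at chr6:127072902-127081408 on the plus strand and *Fam20c* at chr5:138754514-138810077 on the plus strand. *Phex* lies at chrX:157162075-157415312, *Fam20a* at chr11:109669749-109722279, *Furin* at chr7:80388585-80405436 and *Pcsk5* at chr19:17432319-17837632, all on the minus strand. The 250 bases before the RefSeq transcription start (GRCm38.p6) are shown for *Fgf23*, *Phex* and *Fam20a*, whose UMIs met in the same cells. UMIs of *Fam20c*, whose window is described but not shown, met *Fgf23* there too. The *Fgf23* window is chr6:127072652-127072901, the *Phex* window chrX:157415287-157415536 and the *Fam20a* window chr11:109722239-109722488, each written 5′ to 3′ on the strand of its gene. Capitals mark TTTAAA, which resembles a core promoter element of many regulated genes, and the hexamer AGGTCA with its variant AGTTCA, the variant GGGTCA and the variant GGTTCA, which are forms of the half-site that the vitamin D receptor and other nuclear receptors can bind, on either strand.
Fgf23: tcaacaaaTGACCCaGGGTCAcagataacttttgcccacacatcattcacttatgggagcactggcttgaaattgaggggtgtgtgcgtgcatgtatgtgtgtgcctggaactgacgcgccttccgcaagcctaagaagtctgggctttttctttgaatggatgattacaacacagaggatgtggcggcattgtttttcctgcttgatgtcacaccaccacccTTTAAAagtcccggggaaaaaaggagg
Phex: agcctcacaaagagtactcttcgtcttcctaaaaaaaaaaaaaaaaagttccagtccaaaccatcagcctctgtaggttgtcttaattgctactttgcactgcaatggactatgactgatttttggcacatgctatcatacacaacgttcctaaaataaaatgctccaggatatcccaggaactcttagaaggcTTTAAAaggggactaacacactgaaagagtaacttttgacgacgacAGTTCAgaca
Fam20a: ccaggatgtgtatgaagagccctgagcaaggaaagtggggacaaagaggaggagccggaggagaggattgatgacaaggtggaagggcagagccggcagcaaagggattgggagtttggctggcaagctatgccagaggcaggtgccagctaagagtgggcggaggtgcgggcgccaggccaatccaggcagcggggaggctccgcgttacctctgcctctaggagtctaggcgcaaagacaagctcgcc
The *Fgf23* window held 2 half-site hexamers, both GGGTCA, on opposite strands and beginning 242 and 235 bases before the start. The *Phex* window held 1, AGTTCA, beginning 10 bases before the start, and the *Fam20a* window held none. At least 1 such hexamer was present in 38.6% of 32851 promoter windows of the same length, and at least 2 in 9.8%. TTTAAA began 27 bases before the start of *Fgf23* and 56 bases before that of *Phex*, and 12.1% of all windows held it. *Fam20c*, *Pcsk5* and the upstream window of *Furin* had neither, and a second *Furin* window held 1 GGGTCA. The GC content was 48.4% for *Fgf23*, 39.2% for *Phex*, 61.2% for *Fam20a*, 64.0% for *Pcsk5* and 81.2% for *Fam20c*, against a median of 52.4% over all windows. These matches describe the letters only.

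Of the barcodes in the matrices, 4370 untreated and 3693 calcitriol cells were kept and clustered, and their median depth was 11064 and 12258 UMIs. The 6 genes and the rest of the FGF23 axis list except *Dmp1* were left out of the genes that drove the clustering. The 23 clusters gave 17 cell groups, of which 15 were named from marker genes. A cluster of 97 untreated and 216 calcitriol cells was osteocyte-like, with 6 of 7 osteocyte markers (*Phex* not being used), but it also held 5 of 7 osteoblast markers and, as a whole, chondrocyte markers at 18400 CPM (untreated) and 9980 CPM (calcitriol). At the finer resolution of 1.2 it fell apart into 3 portions. The *Dmp1*-high portion, 23 untreated and 68 calcitriol cells, had 5 osteocyte and 3 osteoblast markers and was the only one that kept the osteocyte name. The *Dmp1*-low portion, 56 and 125 cells, counted 5 osteoblast and 4 osteocyte markers, and 18 and 23 cells fell elsewhere. Values are therefore given for the whole cluster and for the *Dmp1*-high cells. Haemoglobin genes took 41.2% of all UMIs in the untreated and 10.6% in the calcitriol library, and within the osteocyte-like cluster 3.71% and 0.761%. Of the barcode sequences, 8 occurred in both libraries, none of them in a cell with *Fgf23*.

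*Fgf23* UMIs were found in the calcitriol and not in the untreated library. None of the 6076 untreated barcodes held an *Fgf23* UMI, which allows a share of barcodes with a captured UMI of up to 0.0494% and sets no limit on cells that express the gene below capture. In the calcitriol library 29 of 4562 barcodes held it (0.636%, Clopper-Pearson interval 0.426 to 0.912), with 541 UMIs in all. In the untreated osteocyte-like cluster, 0 UMIs allow up to 1.90 CPM, and in the calcitriol one the level was 155 CPM. Of the 28 kept cells, 8 were osteocyte-like and held 467 of 538 *Fgf23* UMIs (86.8%), and all 8 lay in the *Dmp1*-high portion. A further 9 were *Bglap*-high osteoblast-like with 45 UMIs, 5 were *Postn*-high osteoblast-like with 17, and 4 were mesenchymal-like with 7. A Matn3-high chondrocyte-like cell and an Igfbp2-high tendon-like cell had 1 UMI each. That chondrocyte-like cell was the deepest of the 28 (93115 UMIs) and carried 63 *Phex* and 121 *Mepe* UMIs. None of the 433 calcitriol erythroid-like cells had an *Fgf23* UMI at a median depth of 9869 UMIs.

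The processing genes met these *Fgf23* UMIs unevenly. The 8 *Fgf23*-expressing osteocyte-like cells, in the order of their *Fgf23* UMIs (158, 107, 96, 44, 30, 12, 12 and 8), held 102, 181, 234, 71, 77, 25, 11 and 9 UMIs of *Phex*. Their *Fam20c* UMIs were 11, 75, 104, 30, 22, 12, 16 and 17. *Phex* and *Fam20c* were thus present in every one of these cells. For *Fam20a* the UMIs were 7, 22, 23, 1, 11, 4, 0 and 0, so that it was present in the 5 cells with most *Fgf23* and in 1 of the other 3. For *Furin* they were 4, 2, 14, 0, 0, 1, 1 and 0, and for *Pcsk5* 0, 0, 2, 0, 0, 0, 0 and 0. The convertase *Furin* was therefore in 5 of 8 cells and *Pcsk5* in 1 of 8.

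**Figure D1:**
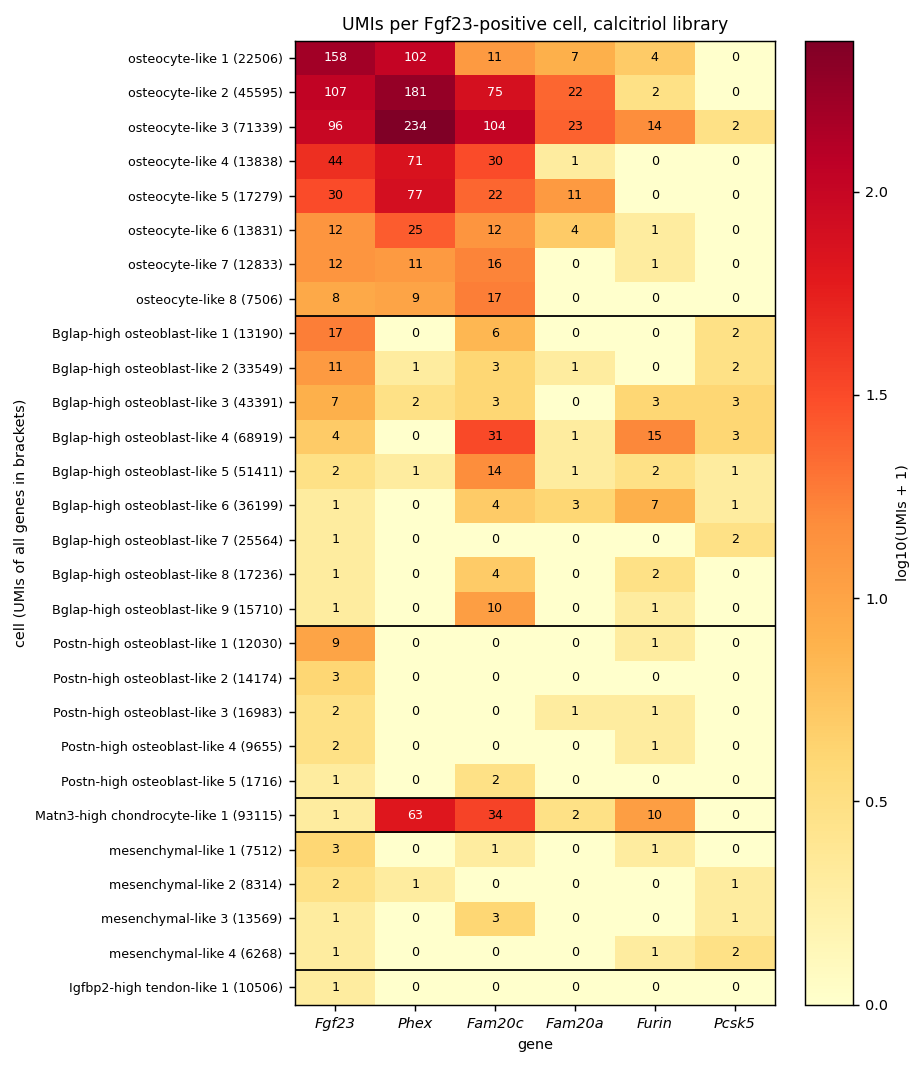
UMIs of *Fgf23* and the 5 processing genes in each of the 28 kept cells with *Fgf23*, all from the calcitriol library; rows are cells with their total UMIs in brackets, and the color gives log10(UMIs + 1). *Phex*, *Fam20c* and *Fam20a* are concentrated in the 8 osteocyte-like rows, whereas *Pcsk5* stands mainly in the 9 *Bglap*-high osteoblast-like rows.

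In the whole osteocyte-like cluster of the calcitriol library, the 8 cells held 6.79% of all UMIs. They held 68 of 93 *Fam20a* UMIs (73.1%), 710 of 1669 *Phex* UMIs (42.5%) and 287 of 1394 *Fam20c* UMIs (20.6%). Of *Furin* they held 22 of 231 UMIs (9.52%) and of *Pcsk5* 2 of 30 (6.67%), close to their share of all UMIs. At least 4 *Fam20a* UMIs were found in 7 calcitriol osteocyte-like cells, 5 of them with *Fgf23*, and in 0 untreated ones. *Fam20a* was at 332 CPM in the *Fgf23*-expressing and 8.90 CPM in the 208 other osteocyte-like cells of the library (log2 ratio 5.22, interval 4.54 to 5.95). For *Phex* the log2 ratio was 3.34 (3.20 to 3.49) and for *Fam20c* 1.83 (1.64 to 2.02). For *Furin* it was 0.53 (-0.18 to 1.17) and for *Pcsk5* -0.03 (-3.14 to 1.96), both with an interval that holds 0. Of the 4 processing genes with at least 50 UMIs over both sets, which leaves out *Pcsk5*, 3 were at least 2-fold higher, as were 9.26% of all genes with as many UMIs. *Fam20a* reached 50 UMIs through the cells with *Fgf23* (68 UMIs, against 25 in the others). Its place in this count was thus tied to its level there. A single cell held 14 of the 22 *Furin* UMIs and both *Pcsk5* UMIs. The chondrocyte markers were at 68.4 CPM in the *Fgf23*-expressing and 10700 CPM in the other cells, with 4 of 7 at 0 in the former, and erythroid markers at 200 and 8180 CPM. The part of these markers in the ratios was not tested.

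The comparison was repeated within the *Dmp1*-high cells, where the calcitriol library had 8 cells with *Fgf23* and 60 without. Here *Fam20a* was at 332 CPM (interval 258 to 421) against 35.1 CPM (22.2 to 52.7), a log2 ratio of 3.24 (2.54 to 3.99), and was found in 6 of 8 against 10 of 60 cells. *Phex* was at 3470 against 1240 CPM (log2 ratio 1.49, 1.34 to 1.63). *Fam20c*, at 1400 against 905 CPM, differed by less than 2-fold (0.63, 0.42 to 0.84). *Furin* was at 107 CPM (67.3 to 163) against 71.7 CPM (52.7 to 95.4), with a log2 ratio of 0.58 (-0.22 to 1.34), so that a difference was not detectable at this depth. *Pcsk5* had 2 UMIs in each set, and *Galnt3* was at 58.6 against 85.4 CPM (-0.54, -1.58 to 0.37). At least 2-fold higher were 2 of the 4 processing genes with at least 50 UMIs, against 4.76% of 2016 genes. *Fam20a* reached 50 UMIs through the cells with *Fgf23* (68 UMIs, against 23 in the others). Its place in this count was thus tied to its level there. The *Fgf23*-expressing cells were deeper, with a median of 15558.5 against 8221.5 UMIs. With each cell thinned to 7000 UMIs, which left 8 and 37 cells, the expected share with *Fam20a* was 65.6% against 15.4%, and that with *Furin* 35.9% against 35.8%. Osteocyte markers moved with the same split: *Dmp1*, a matrix protein gene of osteocytes, was at 19600 against 8940 CPM and *Mepe*, another, at 9750 against 3920 CPM. Other markers differed too. Erythroid markers were at 200 CPM in the 8 cells with *Fgf23* and at 21200 CPM in all 68 calcitriol *Dmp1*-high cells. Chondrocyte markers were at 68.4 and 822 CPM in these 2 sets, and osteoblast markers at 24600 and 20300 CPM. The part of all these markers in the ratios was not tested.

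Among the other proprotein convertases, *Pcsk6* (PACE4) was lower where *Fgf23* was found. It had 2 UMIs in the 8 *Fgf23*-expressing osteocyte-like cells (9.77 CPM) and 103 in the 60 other *Dmp1*-high cells of the library (157 CPM), a log2 ratio of -4.01 (-7.07 to -2.12), where 9.23% of genes were at least 2-fold lower. In *Bglap*-high osteoblast-like cells it was at 29.5 CPM in the 9 cells with *Fgf23* and 147 CPM in the 55 without (-2.31, -3.47 to -1.36). *Pcsk7*, with 6 and 10 UMIs in the *Dmp1*-high cells with and without *Fgf23*, was at 29.3 and 15.3 CPM (0.94, -0.80 to 2.54). *Mbtps1*, with 2 and 20 UMIs, was at 9.77 and 30.5 CPM (-1.64, -4.78 to 0.40), and both intervals hold 0.

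The processing genes of the *Bglap*-high osteoblast-like cells with *Fgf23* were set beside those of the other cells of this group. *Bglap* encodes osteocalcin, a product of mature osteoblasts. The *Fgf23* UMIs of the 9 cells with this gene were 17, 11, 7, 4, 2, 1, 1, 1 and 1, and their *Phex* UMIs 0, 1, 2, 0, 1, 0, 0, 0 and 0. *Pcsk5* UMIs in these cells were 2, 2, 3, 3, 1, 1, 2, 0 and 0, and *Furin* UMIs 0, 0, 3, 15, 2, 7, 0, 2 and 1. All 9 cells thus held *Furin* or *Pcsk5*, 7 held *Pcsk5* and 3 held *Phex* (33.3%). Of the 55 *Bglap*-high cells without *Fgf23*, 38 held *Furin* or *Pcsk5* (69.1%), 22 *Pcsk5* (40.0%) and 10 *Phex* (18.2%). The 9 cells had 13190 to 68919 UMIs each with a median of 33549, and the median of the whole group was 20925. The part of this greater depth in their shares was not tested. The *Phex* level was 13.1 CPM in the 9 cells against 175 CPM in the 55 without *Fgf23* (log2 ratio -3.74, -5.63 to -2.37). However, 5 cells of this group held 91.1% of its *Phex* UMIs in the calcitriol library. *Furin* (0.57, -0.08 to 1.18), *Pcsk5* (0.54, -0.45 to 1.44), *Fam20c* (0.33, -0.06 to 0.71) and *Fam20a* (0.06, -1.51 to 1.38) differed by less than their counting error. In this comparison 1.64% of genes with at least 50 UMIs were at least 2-fold higher and 8.7% lower. *Phex* reached 50 UMIs through the cells without *Fgf23*, so its place among the lower genes was tied to its level there.

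The *Fgf23*-expressing cells of the osteocyte-like and the *Bglap*-high group were then set against each other. *Phex* was at 3470 against 13.1 CPM (log2 ratio 8.05, 6.68 to 9.93), *Fam20a* at 332 against 19.7 CPM (4.08, 2.88 to 5.57) and *Fam20c* at 1400 against 246 CPM (2.51, 2.14 to 2.90), all higher in the osteocyte-like cells. *Pcsk5* was lower there, at 9.77 against 45.9 CPM (-2.23, -5.41 to -0.11), but the osteocyte-like value rests on 2 UMIs in 1 cell. *Furin* was at 107 against 98.3 CPM (0.13, -0.74 to 0.97). Of the 4 processing genes with at least 50 UMIs, again without *Pcsk5*, 3 were at least 2-fold higher in the osteocyte-like cells, where 15.7% of 1141 genes were higher and 16.4% lower. *Phex* and *Fam20a* reached 50 UMIs through the osteocyte-like cells (710 and 68 UMIs), so their place in this count was tied to their level there. The 5 *Postn*-high osteoblast-like cells with *Fgf23* held no *Phex* and no *Pcsk5* UMI, and *Furin* occurred in 3 of them as a single molecule each. Over the 28 cells, 20 had *Fam20c*, 17 *Furin*, 13 *Phex*, 12 *Fam20a* and 11 *Pcsk5*. A UMI of either convertase was found in 22 (78.6%), and 2 had none of the 5 genes (7.14%). In the 3665 kept calcitriol cells without *Fgf23*, which include the erythroid-like cells, these shares were 52.0% and 33.9%. Of the same 3665 cells, 31.6% had *Fam20c*, 44.8% *Furin*, 6.77% *Phex*, 12.2% *Fam20a* and 15.3% *Pcsk5*.

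Across all cells, the 5 processing genes were distributed in different ways. In the calcitriol library the log2 ratio of the osteocyte-like cluster over all other kept cells was 6.87 for *Fgf23*, 5.19 for *Phex*, 3.02 for *Fam20c*, 1.31 for *Fam20a*, 0.39 for *Furin* and -1.16 for *Pcsk5*. In the untreated library it was 5.90 for *Phex*, 3.99 for *Fam20c*, -0.33 (-1.47 to 0.61) for *Fam20a*, 1.32 (1.07 to 1.56) for *Furin* and 0.03 (-0.62 to 0.61) for *Pcsk5*. The other kept cells include the erythroid-like cells, and haemoglobin genes took 41.2% of all untreated and 10.6% of all calcitriol UMIs. The mix of other cells thus differed between the libraries, and its part in these ratios was not tested. *Fam20a* was found in a smaller share of osteocyte-like than of other cells also in the calcitriol library (8.33% against 12.7%), and as a mean over cells its ratio was 0.28. Of all genes in the calcitriol library, 4.2% were at least 2-fold higher and 22.7% lower there, and these ratios are descriptions, since the cluster was made from the same cells. *Phex* and *Fam20c* were highest in the osteocyte-like cluster in both libraries, with *Phex* levels of 300 and 554 CPM (untreated and calcitriol) and *Fam20c* levels of 499 and 463 CPM. For *Phex*, *Bglap*-high osteoblast-like cells came next, at 58.1 and 145 CPM. Their *Fam20c* level was 123 and 205 CPM, and that of Notum-high chondrocyte-like cells 155 and 161 CPM. Over both libraries, the *Fam20c* levels of these groups (167 and 160 CPM) differed by less than counting error. Within the *Dmp1*-high cells *Phex* reached 1650 and 1770 CPM and *Fam20c* 613 and 1020 CPM, whereas in the *Dmp1*-low portion *Phex* was at 36.4 and 65.4 CPM and *Fam20c* at 242 and 187 CPM. The 18 untreated and 23 calcitriol cells outside both portions were at 169 and 77.7 CPM for *Phex* and at 845 and 408 CPM for *Fam20c*, and held 459 of the 790 *Fam20c* UMIs of the untreated cluster. The *Phex* level was thus highest in the *Dmp1*-high cells, and *Fam20c* was found in all 3 portions.

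**Figure D2:**
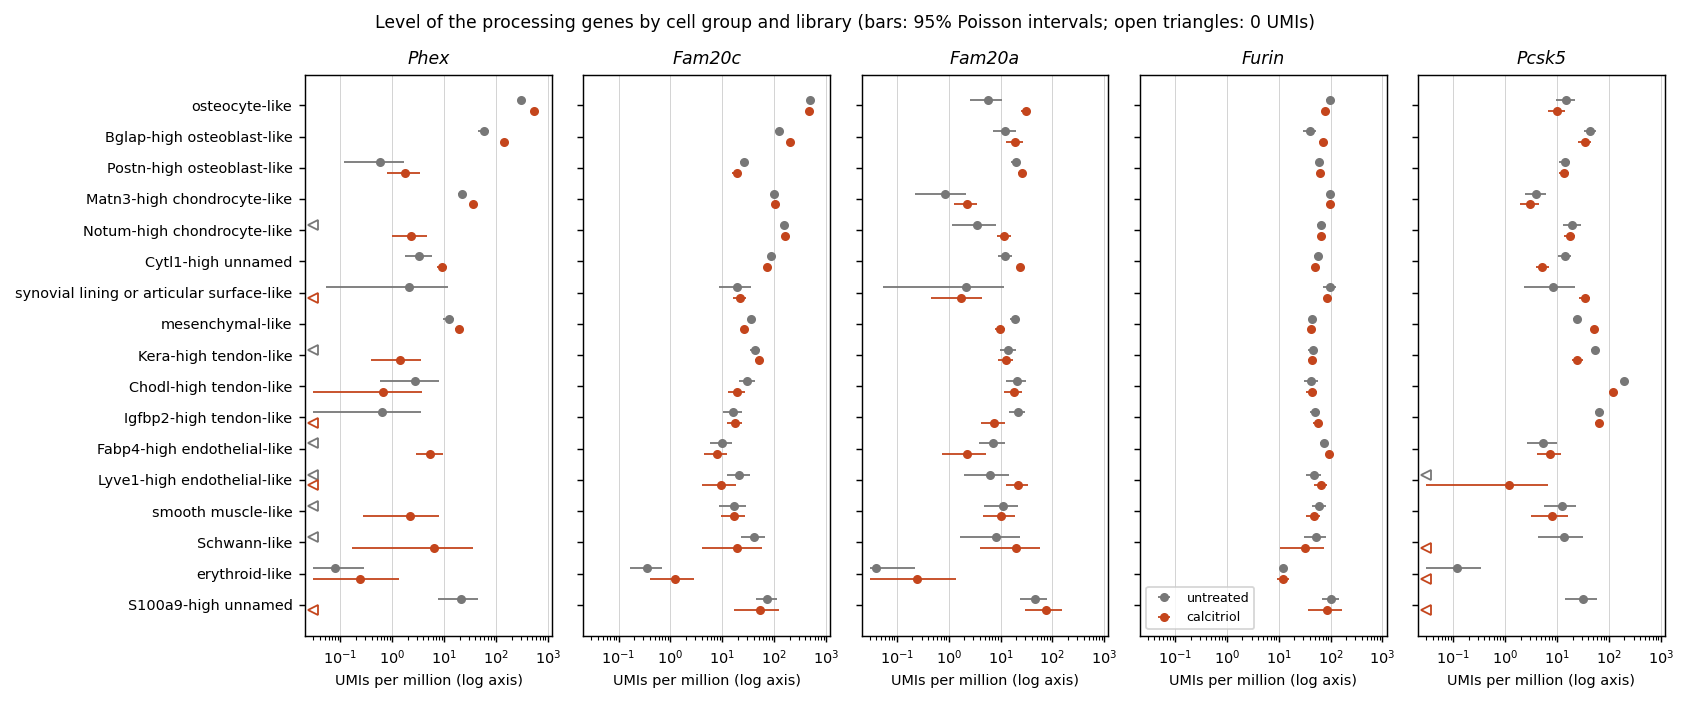
Level of each processing gene, in CPM on a log axis, in the 17 cell groups; grey points are the untreated and red points the calcitriol library, bars are exact Poisson intervals and open triangles mark groups with 0 UMIs. Over both libraries *Furin* runs from 41.8 to 97.3 CPM in all groups but erythroid-like cells, which are at 11.9 CPM. *Pcsk5* is highest in Chodl-high tendon-like cells and *Phex* in osteocyte-like cells. Levels of different genes are not compared.

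*Furin*, the broadly expressed convertase, was present in all 17 groups. Over both libraries its level ran from 41.8 CPM in mesenchymal-like to 97.3 CPM in the S100a9-high unnamed cells, and it was 11.9 CPM in erythroid-like cells. The osteocyte-like level was 96.7 CPM (82.0 to 113) in the untreated and 76.6 CPM (67.1 to 87.2) in the calcitriol library, 5 of 17 in order. The 5 highest groups, S100a9-high, Matn3-high chondrocyte-like, synovial lining or articular surface-like, Fabp4-high endothelial-like and osteocyte-like cells, did not differ from neighbour to neighbour beyond counting error. The step below them, to Notum-high chondrocyte-like cells at 66.2 CPM, and the step down to erythroid-like cells were the 2 that did. *Furin* was found in 56.5% of calcitriol osteocyte-like cells at a median depth of 11550 UMIs and in 9.24% of calcitriol erythroid-like cells at 9869 UMIs. Erythroid-like cells were the group with the lowest *Furin* level in these same data, so their share is no independent background. Their CPM also counts haemoglobin UMIs in the total, and the part of these in the low level was not tested.

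*Pcsk5*, in contrast, was highest in tendon-like, mesenchymal-like and *Bglap*-high osteoblast-like cells. Chodl-high tendon-like cells, a group with tendon markers such as *Tnmd*, had the highest level in both libraries, 198 CPM (172 to 226) untreated and 119 CPM (102 to 138) calcitriol, with the gene in 64.0% and 45.0% of cells. Igfbp2-high tendon-like cells followed at 66.0 and 64.4 CPM, and over both libraries each of these steps was larger than counting error. The 4 groups that came next over both libraries stood in another order in each. In the untreated library Kera-high tendon-like cells were at 54.2 CPM, *Bglap*-high osteoblast-like at 43.7, mesenchymal-like at 24.6 and synovial lining or articular surface-like at 8.51. In the calcitriol library mesenchymal-like cells were at 50.6 CPM, *Bglap*-high at 34.3, synovial lining or articular surface-like at 34.2 and Kera-high at 24.8. The osteocyte-like cluster was 10 of 17 in order over both libraries, at 15.2 CPM (9.72 to 22.6) and 9.95 CPM (6.72 to 14.2). Of the *Dmp1*-high cells, the 23 untreated ones had 0 *Pcsk5* UMIs, which allows up to 14.0 CPM by the limit of 3 counts and 17.3 CPM by the exact interval. The 68 calcitriol ones had 4 UMIs (4.65 CPM, 1.27 to 11.9). Both intervals overlap those of the whole cluster. The *Dmp1*-low portion was at 29.1 and 13.9 CPM. Matn3-high chondrocyte-like cells, the deepest group, were at 3.96 and 2.99 CPM, and erythroid-like cells held 3 UMIs in 2741 cells.

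*Fam20a* was spread over many groups. Its order over both libraries was led by the S100a9-high unnamed group at 52.6 CPM, which rests on 41 cells and 20 UMIs and had as many neutrophil as marrow stromal markers. Below it the order differed between the libraries. In the untreated library Igfbp2-high tendon-like (21.3 CPM), Chodl-high tendon-like (20.4 CPM), *Postn*-high osteoblast-like (19.8 CPM) and mesenchymal-like cells (18.8 CPM) followed, and the osteocyte-like cluster was at 5.69 CPM. In the calcitriol library the osteocyte-like cluster (30.9 CPM, with 68 of 93 UMIs in 8 cells), *Postn*-high osteoblast-like (26.0 CPM) and Cytl1-high unnamed cells (23.8 CPM) followed. *Postn*-high osteoblast-like cells carried it thinly, with 4 and 6 UMIs at most in a cell of the untreated and the calcitriol library, whereas the osteocyte-like maximum was 3 and 23. Matn3-high chondrocyte-like cells were at 0.833 and 2.21 CPM although they were sampled most deeply, and *Fam20c* in the same cells was at 101 and 104 CPM. Cells with *Fam20a* but without a *Fam20c* UMI were common in *Postn*-high osteoblast-like cells of the calcitriol library (59 of 269 without *Fgf23*) and rare in osteocyte-like cells (1 of 208). In the same 2 sets *Fam20a* was found in 29.4% and 5.77% of cells and *Fam20c* in 19.0% and 69.2%. The part of these shares in the contrast was not tested.

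The comparison of the libraries asks which of these genes differed after calcitriol. In the osteocyte-like cluster, *Fam20a* had 9 UMIs (5.69 CPM) without and 93 UMIs (30.9 CPM) with calcitriol, a log2 ratio of 2.44 (1.45 to 3.61). It was the only processing gene past 2-fold in that cluster, where 4.66% of 6460 genes were at least 2-fold higher and 2.79% lower. These shares are of genes with at least 50 UMIs over both libraries, and *Fam20a* reached 50 UMIs through the calcitriol library. Its place in this count was thus tied to its level there. Without the 8 *Fgf23*-expressing cells the ratio was 0.65 (-0.50 to 1.93), and as a mean over cells of their own CPM it was 0.23, so that the difference rested on a few cells. Within the *Dmp1*-high cells *Fam20a* had 6 UMIs in 23 untreated cells (28.1 CPM) and 91 UMIs in 68 calcitriol cells (106 CPM), a log2 ratio of 1.91 (0.74 to 3.40). In the calcitriol cells without *Fgf23* it was at 35.1 CPM (0.32, -1.01 to 1.91). Between all *Dmp1*-high cells of the 2 libraries, 7.09% of genes with at least 50 UMIs were at least 2-fold higher. There too *Fam20a* reached 50 UMIs through the calcitriol library (91 UMIs, against 6 untreated).

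**Figure D3:**
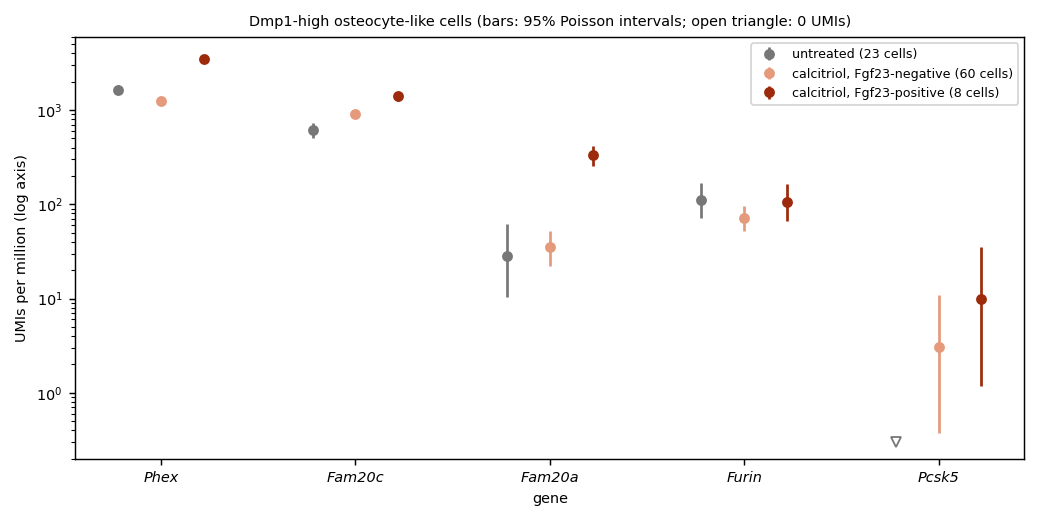
Level of each processing gene in the *Dmp1*-high osteocyte-like cells, in CPM on a log axis, for 23 untreated cells, 60 calcitriol cells without *Fgf23* and 8 with it; bars are exact Poisson intervals and the open triangle marks 0 UMIs. *Fam20a* is at 28.1, 35.1 and 332 CPM, and the *Furin* intervals of the 3 sets overlap.

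*Phex* in the osteocyte-like cluster was at 300 CPM without and 554 CPM with calcitriol (log2 ratio 0.89, 0.74 to 1.04), but its difference depended on which cells were counted. It was 0.19 (0.03 to 0.35) without the *Fgf23*-expressing cells and 0.10 (-0.06 to 0.28) in the *Dmp1*-high cells. In cells of any cluster with a UMI of both *Dmp1* and *Mepe* it was 2.16 (1.83 to 2.51). *Fam20c* also turned with the cells counted, at -0.11 (-0.24 to 0.02) in the cluster, -0.34 (-0.47 to -0.21) without the *Fgf23*-expressing cells and 0.74 (0.47 to 1.02) in the *Dmp1*-high cells. *Furin* was lower in the calcitriol cluster by less than 2-fold (-0.34, -0.64 to -0.03), and in the *Dmp1*-high cells its interval held 0 (-0.49, -1.17 to 0.25). *Pcsk5*, with 24 and 30 UMIs, had a ratio of -0.61 (-1.43 to 0.23). Chondrocyte and erythroid markers of the cluster were higher in the untreated library (18400 against 9980 CPM and 37300 against 7640 CPM). In the *Dmp1*-high cells chondrocyte markers were at 2900 CPM untreated and 822 CPM calcitriol, but erythroid markers at 1710 and 21200 CPM. Osteoblast markers in these cells were at 72100 and 20300 CPM, and osteocyte markers at 12100 and 17900 CPM. The part of all these markers in the ratios between the libraries was not tested.

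Outside the osteocyte-like cells, *Furin* stayed within 2-fold in every group with at least 50 UMIs, and its farthest value was 0.87 (0.40 to 1.36) in *Bglap*-high osteoblast-like cells. *Pcsk5* did not go the same way in all groups. In mesenchymal-like cells it was at 24.6 CPM in 437 untreated and 50.6 CPM in 662 calcitriol cells (log2 ratio 1.04, 0.76 to 1.33), where 2.93% of genes were at least 2-fold higher. The share of cells with it was 18.8% and 29.3%, and with each cell thinned to 2000 UMIs (435 and 654 cells) 5.29% and 8.57%. At the finer resolution, the difference in mesenchymal-like cells was 1.87 (1.36 to 2.41) in the subcluster with 121 and 206 cells, 0.84 (0.33 to 1.37) in that with 194 and 259, and -0.06 (-0.57 to 0.47) in that with 121 and 197. Synovial lining or articular surface-like cells were also higher with calcitriol, at 8.51 and 34.2 CPM (2.01, 0.60 to 3.92), but the untreated value rests on 4 UMIs in 25 cells, and 3.77% of genes were past 2-fold there. *Pcsk5* reached 50 UMIs in these cells through the calcitriol library (80 UMIs).

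Lower with calcitriol was *Pcsk5* in Kera-high tendon-like cells, at 54.2 and 24.8 CPM (-1.13, -1.58 to -0.69), where 6.77% of genes were at least 2-fold lower. In both libraries single cells weighed heavily there, since 60.5% of the UMIs in untreated and 58.0% in calcitriol cells came from 5 cells each. The Cytl1-high unnamed cells, which had chondrocyte and synovial markers in equal number, were at 14.3 and 5.24 CPM (-1.45, -2.03 to -0.86), against 3.32% of genes. In Chodl-high tendon-like cells, where the gene is highest, the difference stayed under 2-fold (-0.73, -1.03 to -0.44). *Fam20a* stayed just within 2-fold in mesenchymal-like cells, at 18.8 and 9.87 CPM (-0.93, -1.36 to -0.50), and in Cytl1-high cells, at 12.3 and 23.8 CPM (0.95, 0.48 to 1.45). *Phex* was past 2-fold in *Bglap*-high osteoblast-like cells (1.32, 0.95 to 1.70), with the 5 cells named above holding most of its UMIs and 3.84% of genes higher there, and in Cytl1-high cells (1.43, 0.56 to 2.44), from 12 to 90 UMIs, where 3.17% of genes were higher. *Phex* reached 50 UMIs in Cytl1-high cells through the calcitriol library.

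**Figure D4:**
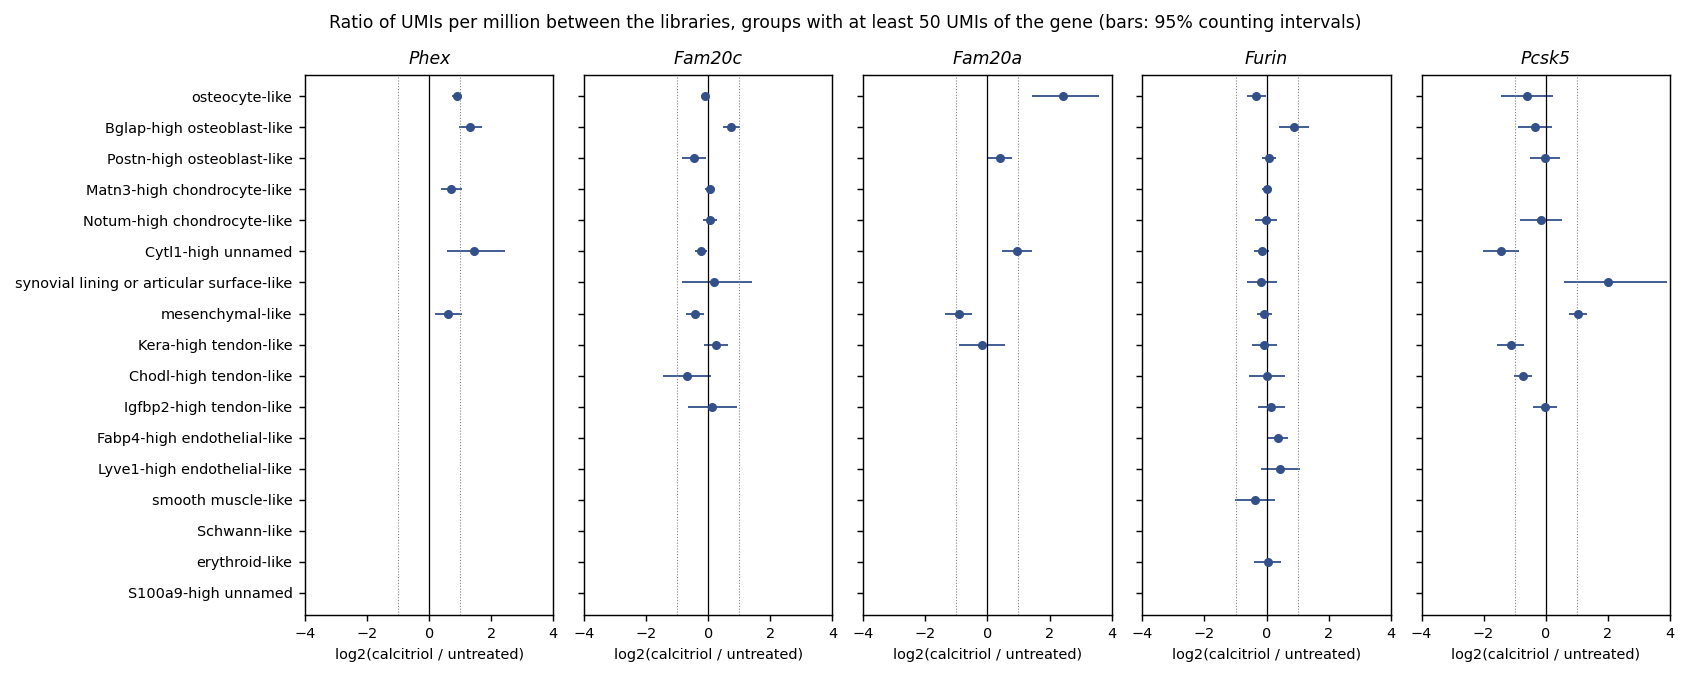
Log2 ratio of the level in the calcitriol over that in the untreated library for each processing gene and each cell group with at least 50 UMIs of the gene over both libraries; bars are counting intervals and dotted lines mark 2-fold. *Furin* lies within 2-fold throughout, *Fam20a* is at 2.44 in the osteocyte-like cluster, and *Pcsk5* lies on both sides of 0.

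The wider FGF23 axis list of 31 genes (convertases, FAM20 family, M13 peptidases, FGF receptors and α-Klotho, *Galnt3*, regulators and endocrine FGFs) had 18 members with at least 50 UMIs in the osteocyte-like cluster. Of these, 5 were at least 2-fold higher with calcitriol, against 4.66% of all genes, and 0 lower, against 2.79%, with a median log2 ratio of 0.30 against 0.06 over all genes. *Fgf23*, at 0 untreated UMIs, *Fam20a*, at 9, *Fgfr2*, at 27, and *Vdr*, at 44, reached 50 UMIs through the calcitriol library. Besides *Fgf23* and *Fam20a*, the higher genes were *Fgfr2*, a receptor of FGFs (1.10), the osteocyte matrix gene *Dmp1* (1.09) and the vitamin D receptor gene *Vdr* (1.01). In the *Dmp1*-high cells *Dmp1* was at 8360 CPM untreated and 11500 CPM calcitriol, less than 2-fold apart. The list was chosen with earlier results of these data known, so its counts in this and the other groups are descriptions. In *Bglap*-high osteoblast-like cells 5 of 15 were higher, against 3.84% of genes, with a median of 0.73 against -0.02, and these were *Phex*, *Mme*, *Dmp1*, *Enpp1* and *Vdr*. In mesenchymal-like cells 2 of 15 were higher (*Pcsk5* and *Dmp1*), against 2.93% of genes, and in Kera-high tendon-like cells 2 of 13 were lower (*Pcsk5* and the M13 peptidase *Mme*), against 6.77%. *Dmp1* in mesenchymal-like cells (3 untreated and 73 calcitriol UMIs) also reached 50 UMIs through the calcitriol library. The same held for *Mme* in *Bglap*-high osteoblast-like cells (11 and 51 UMIs). Over both libraries *Pcsk6* was at 147 CPM in the osteocyte-like cluster, after 964 CPM in synovial lining or articular surface-like and 253 CPM in Lyve1-high endothelial-like cells. *Galnt3*, whose product protects FGF23, was highest in osteocyte-like cells at 54.4 CPM, followed by *Bglap*-high osteoblast-like cells at 39.0 CPM.

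The genes whose levels ran most like those of each member were found by Pearson's r of log2(CPM + 10) over 28 groups by library of at least 50 cells, among 14374 genes. These points share libraries and depth, so the values are descriptions. For *Phex* they were *Ccdc194* (0.92), *Rhbdl2* (0.92) and *Irx5* (0.91), and for *Fam20c* they were *Sema4d* (0.91), *Glrx* (0.87) and *Hivep3* (0.86). For *Fam20a* they were *Plat* (0.82), *Twist1* (0.78) and *Pdgfc* (0.78), for *Furin* *Bcor* (0.92), *Rreb1* (0.91) and *H3f3b* (0.87), and for *Pcsk5* *Rasl11b* (0.89), *Nkd2* (0.86) and *Wasf1* (0.84). For *Fgf23*, over the 23 clusters of the calcitriol library and 13380 genes, they were *Ccdc194* (0.99), *Pacsin1* (0.97) and *Gm32200* (0.96). There *Fgf23* was at 155 CPM in osteocyte-like, 27.5 CPM in *Bglap*-high and at most 3.35 CPM in all other groups. These values of r thus rest mainly on the osteocyte-like and *Bglap*-high clusters. Among the processing genes themselves, *Phex* and *Fam20c* were the pair most alike (0.77), *Fam20a* and *Pcsk5* came to 0.45, and *Phex* and *Pcsk5* to -0.08.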

How the data were processed

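Single-cell RNA-seq was made from 1 untreated and 1 calcitriol library (10x Genomics 3′ chemistry). The authors deposited filtered matrices of UMI counts per gene and barcode, made with Cell Ranger 4.0.0 on mm10, without normalization, and they clustered with Seurat 3.2.2. The totals were 70266983 UMIs in 6076 barcodes and 60392557 UMIs in 4562 barcodes. Depth limits the precision of each value, and intervals and limits for 0 (3 counts) cover counting error only.

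Barcodes with under 200 genes were left out (1443 untreated, 642 calcitriol), as was a cluster per library past 3 limits (263 and 227 cells: median mitochondrial share over 10%, under 1000 genes, under 2000 UMIs). The rest was integrated and clustered with 2000 variable genes, 30 principal components and resolution 0.8 (Seurat 5.3.0, R 4.3.3). A marker counted when found in at least 10% of cells, at 50 UMIs and at 2-fold with a pseudocount of 10 CPM. A name needed 3 markers and more than any other class, a naming rule made with the clusters already in view. Scrublet (scanpy 1.11.5) called 0 untreated and 4 calcitriol cells as doublets, which is too few for a caller that works, so doublets were kept, and 1 of the 29 *Fgf23* barcodes was over the score limit of the expected rate (0.8% per 1000 cells).

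Sums of UMIs were compared as CPM, with exact Poisson, Clopper-Pearson and conditional binomial intervals (Python 3.11.15, numpy 2.4.6, scipy 1.17.1, pandas 2.3.3). Only the conditional binomial intervals were checked on simulated data. The simulated sums were Poisson counts, so the check does not cover spread between cells. The named genes are the 6 members, axis genes past 2-fold or carrying a result, and the 3 genes most like each member. The members and lists were chosen with earlier results of these data known. The *Dmp1*-high portion was described after its values had been seen. Figures were drawn with matplotlib 3.10.9. Gene positions are from GENCODE M21 and promoters from RefSeq, which held all 6 genes. Protein sequences were not used here.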

Additional observations from a re-analysis of the deposited data

Results flagged for a closer look

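The ratio of *Pcsk5* between the libraries lay past 2-fold in opposite directions in different cell groups, with intervals that leave out 0. On the log2 scale it was 1.04 in mesenchymal-like cells and 2.01 in synovial lining or articular surface-like cells, and -1.45 in Cytl1-high unnamed cells and -1.13 in Kera-high tendon-like cells. The difference between these groups was not tested, since each group is 1 library.

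Among the barcodes outside the clusters, 1 calcitriol barcode held 3 *Fgf23* UMIs, against 0 in the untreated barcodes outside the clusters. It had 5461 UMIs but 451 genes, and carried 1 *Phex*, 1 *Pcsk5*, 3 *Dmp1* and 9 *Bglap* UMIs and none of *Fam20c*, *Fam20a* and *Furin*.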

How the results depend on the processing

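Each group is 1 library, so every value has counting error only, and the cause of each change was not tested. No paired analysis was possible because each group is 1 library. Besides resolution and depth, the definition of the osteocyte-like cells moved most values. The direction of *Fam20c* between the libraries turned, with intervals on both sides that leave out 0: it was negative with 20 principal components (-0.15, -0.27 to -0.02), with all variable genes (-0.17, -0.30 to -0.05), without haemoglobin and mitochondrial genes (-0.16, -0.29 to -0.03) and without the *Fgf23*-expressing cells, and positive at resolution 1.2, with any of the 3 limits and in cells with *Dmp1* and *Mepe*. Values are log2 ratios throughout.

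In the calcitriol library, osteocyte-like against other kept cells gave 8.73 for *Fgf23*, 6.68 for *Phex*, 4.00 for *Fam20c*, 3.14 for *Fam20a* and -2.23 for *Pcsk5* at resolution 1.2. Cells of any cluster with *Dmp1* and *Mepe* gave 8.09, 6.07, 3.61 and 2.88 for the first 4 of these genes. Thinning to 2000 UMIs gave 5.31 for *Fgf23*, 3.19 for *Fam20c* and 0.39 for *Fam20a*, and the mean over cells of their own CPM 5.92 for *Fgf23*, 5.31 for *Phex*, 3.37 for *Fam20c* and 0.28 for *Fam20a*. *Phex* and *Fam20c* were 4.91 and 2.80 with 20 principal components, 5.06 and 2.79 with all variable genes, and 5.36 and 2.82 where a cluster past any of the 3 limits was left out. Without haemoglobin and mitochondrial genes *Fam20c* was 2.93.

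Calcitriol against untreated gave 0.10 for *Phex* and 0.74 for *Fam20c* at resolution 1.2, and 2.16 and 0.59 in cells of any cluster with *Dmp1* and *Mepe*. *Phex* was 1.40 with 20 principal components, and *Fam20c* 0.61 where any of the 3 limits counted. Thinned to 2000 UMIs, *Phex* was 0.59 and *Furin* -0.98. The mean over cells gave 0.47 for *Phex*, 0.05 for *Fam20c* and 0.23 for *Fam20a*, and leaving out the *Fgf23*-expressing cells, a choice made after seeing the data, 0.19, -0.34 and 0.65. *Pcsk5* gave no ratio at resolution 1.2, since the untreated cells held none. With at least 20 in place of 50 UMIs, 654 in place of 301 genes were higher and 405 in place of 180 lower.

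*Fgf23*-expressing against other osteocyte-like cells gave 1.49 for *Phex*, 0.63 for *Fam20c* and 3.24 for *Fam20a* at resolution 1.2. Against cells with *Dmp1* and *Mepe* only, also chosen after seeing the data, these were 1.63, 0.62 and 3.11, and in cells of any cluster with both 1.65, 0.52 and 2.52. *Phex* was 3.63, 3.56 and 3.09 with 20 principal components, all variable genes and any of the 3 limits, *Fam20c* 2.06 and 2.07 with the former 2, and *Fam20a* 5.97 when thinned. Leaving out each of the 8 cells in turn gave 3.28 to 3.42 for *Phex*, 1.76 to 1.94 for *Fam20c*, 5.02 to 5.32 for *Fam20a*, -0.31 to 0.76 for *Furin* and, over 7 omissions, 0.02 to 0.33 for *Pcsk5*. The remaining cell held both *Pcsk5* UMIs and 14 of the 22 *Furin* UMIs, and without it *Pcsk5* has no ratio and *Furin* is at -0.31. Resolution 0.5 gave the same 97 and 216 osteocyte-like cells, and a limit of 2 *Fgf23* UMIs the same 8 cells, so neither could move a ratio. The doublet calls took out 4 cells, too few to serve as a check. Leaving out the highest doublet scores (162 untreated and 116 calcitriol cells) moved no ratio beyond its counting error.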
